A study of Homo sapiens with 4 samples.

Results

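The regions described here are stretches of the genome called as HuR-bound with a clear score after 5 Gy of X-rays. No peak called in the unirradiated cells overlapped them. They are the peaks of the 5 Gy list with a score of at least 150 that share no base with any peak of the 0 Gy list, strand ignored. By this rule 1168 peaks were found, out of 17569 peaks of the 5 Gy list with that score, 36216 peaks of the 5 Gy list in all, and 84146 peaks of both lists. They cover 0.913 Mb, or 2.63% of the length covered at 5 Gy. They were chosen by the score and by the absence of overlap. Scores, lengths, overlaps and distances to 0 Gy peaks below are therefore descriptions and support nothing by themselves.

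HuR, the product of ELAVL1, is an RNA-binding protein that recognises U-rich and AU-rich stretches, in introns of pre-mRNA as well as in 3′ untranslated regions. It is mostly nuclear, can move to the cytoplasm under stress such as DNA damage, and is best known for protecting mRNAs from decay. X-rays break DNA and set off the p53 response, in which RNA-binding proteins are among the regulators of which transcripts persist.

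RNA immunoprecipitation and sequencing (RIP-seq) recovers the RNA held by a protein with an antibody. It was carried out in WS1, a line of human skin fibroblasts, in 4 groups with 1 library each: HuR at 0 Gy, control immunoglobulin (IgG) at 0 Gy, HuR at 5 Gy and IgG at 5 Gy. All groups are the same line, and the only difference between the doses that the labels give is the irradiation. The sources used here do not give the time between irradiation and harvest, the antibody or any crosslinking. The IgG libraries enter only through the calls, as the background of their own dose. With 1 library a group, a region present in 1 list and absent from the other was not checked in a second culture, and no test between the doses is given. The depth of the 4 libraries is unknown, and more bound RNA cannot be told apart from more of the transcript in the cells. Positions are those of the genome build hg19, counted from 1. The regions were not joined to gene names, to exons or introns, or to sequence, so fibroblast markers, gene groups and binding motifs were not analysed here.

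Peaks without a counterpart made up 6.65% of the 5 Gy peaks with a score of at least 150 (Wilson 95% interval 6.29 to 7.03), against 27.0% of all 5 Gy peaks. The score is the authors' own, has the form of −10 log10 of a p-value, and starts at 60.01 in the 5 Gy list. The same rule with the lists exchanged gave 3393 of 22271 0 Gy peaks, or 15.2% (95% interval 14.8 to 15.7), against 41.9% of all 0 Gy peaks. The 0 Gy list was the longer, with 47930 peaks against 36216 at 5 Gy. A 5 Gy peak therefore had more peaks of the other list to meet than a 0 Gy peak had. How much of the difference in shares goes with list length was not tested. The lower share at 5 Gy was seen in each of the score classes plotted by dose. In the class that begins at 150 and ends below 200, no counterpart was found for 660 of 3279 peaks at 5 Gy (20.1%, 95% interval 18.8 to 21.5) or for 1689 of 4354 at 0 Gy (38.8%, 95% interval 37.4 to 40.2). Between 500 and 1000 the shares were 0.953% and 3.04%. Intervals here and below count each peak as an independent draw, so they hold counting error and nothing of the spread between cultures. The number of regions moved with the rule: a minimum score of 100 gave 3230, one of 250 gave 278, and 670 of the 1168 had no 0 Gy peak within 1 kb.

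**Figure D1:**
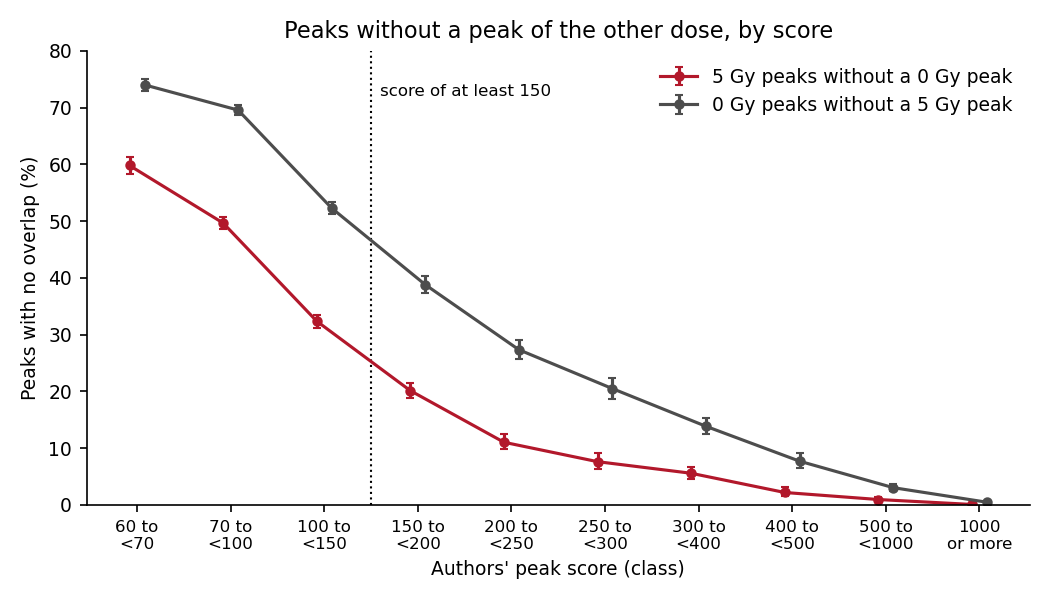
Percentage of peaks with no overlap in the list of the other dose (vertical axis) in classes of the authors' peak score (horizontal axis), for the 5 Gy list (red) and the 0 Gy list (grey), with Wilson 95% intervals. The 5 Gy share lies below the 0 Gy share in every class and falls from 59.8% at scores of 60 to 70 to 0.0846% at 1000 or more.

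Most of the 1168 peaks lay close above the minimum score. Their median score was 189.6 (quartiles 165.0 and 247.2), and 660 of them (56.5%) scored under 200. Another 230 scored from 200 to under 250, 116 from 250 to under 300, 131 from 300 to under 500, and 27 from 500 to under 1000. A score of at least 1000 was reached by 4 peaks. The 5 Gy peaks that overlapped a 0 Gy peak had a median score of 440.8, so shares among them are given below after weighting them to the score classes of the peaks without a counterpart, where so stated. At the threshold itself, the regions just inside scored 150 on chromosome 11 (122660197 to 122660334), 150.04 on chromosome 3 (194170630 to 194171270) and 150.07 on chromosome 17 (27528945 to 27529761). Just outside lay peaks of 149.82 on chromosome 20 (18452109 to 18452702) and 149.80 on chromosome 5 (14713428 to 14714129) and chromosome 2 (158235502 to 158236198).

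The region with the highest score lay on chromosome 20 (31442601 to 31446726, 4126 bp, score 3100). Scores above 3000 are largely tied at that value. The region stood alone at 5 Gy too, with the nearest other 5 Gy peak 11.3 kb away. Neither list had a peak within 10 kb on either side. The nearest 0 Gy peak scored 65.21. Just beyond it, within 15 kb of the middle of the region, lay 0 Gy peaks of 296.32 and 175.44, overlapped by a 5 Gy peak of 199.92. On chromosome 10 (95660480 to 95662334, score 1179.28), the 10 kb flanks together held 288 bp of 0 Gy peaks and 204 bp of other 5 Gy peaks, and the nearest 0 Gy peak scored 66.28. The third-ranked region, on chromosome X (68060074 to 68061971, score 1035.81), had a 0 Gy peak of 96.45 on the left at 1.31 kb and none on the right for 1095 kb. These 3 regions thus had little or no bound sequence within 10 kb at either dose, and in each case the nearest 0 Gy peak scored under 100.

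Other high-scoring regions sat inside longer bound stretches, and the 5 of the 20 highest scores with the most other 5 Gy length in their flanks are given here. On chromosome 4 (122615267 to 122617306, score 1012.85), the region was 1 of 3 5 Gy peaks with gaps under 100 bp. The left neighbour, of score 1030.6, overlapped a 0 Gy peak of score 135.97, and the right neighbour, of score 60.19, lay 11 bp away. Flanks of 10 kb on each side held 4042 bp of other 5 Gy peaks and 1699 bp of 0 Gy peaks. On chromosome 10 (101767524 to 101769387, score 671.58), the flanks held 7133 bp at 5 Gy and 3011 bp at 0 Gy. The 0 Gy peak of 649.3 on its left, 1.24 kb away, was overlapped by a 5 Gy peak of 1729.54. Similar settings were found on chromosome 20 (3874271 to 3875966, score 839.68), with 10875 bp at 5 Gy and 6913 bp at 0 Gy in the flanks, and on chromosome 9 (19102213 to 19102951, score 839.85), with 9088 and 5773 bp. On chromosome 17 (62612008 to 62614596, score 587.84) the flanks held 6444 and 1922 bp. These 5 were picked for their 5 Gy flanks. Of all 20, 15 had more flanking length at 5 Gy than at 0 Gy, 3 had less and 2 had none at either dose. Those with less were the region of 1179.28 on chromosome 10, that of 768.91 on chromosome 9 (0 bp at 5 Gy and 534 bp at 0 Gy) and that of 663.07 on chromosome 15 (377 and 779 bp).

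**Figure D2:**
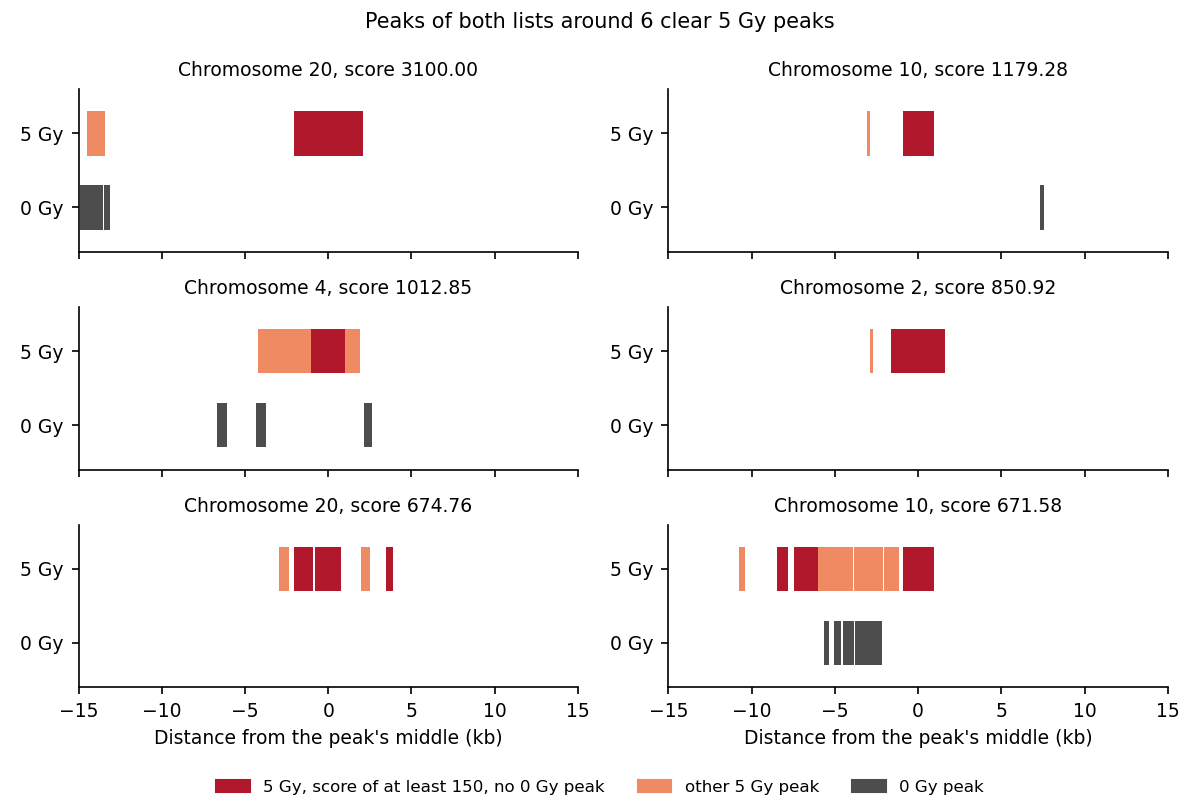
Peaks of the 5 Gy list (upper row of each panel) and the 0 Gy list (lower row) within 15 kb of the middle of 6 regions, chosen among the 20 highest scores to show the different settings. Red boxes are 5 Gy peaks of score 150 or more without a 0 Gy peak, orange boxes other 5 Gy peaks and grey boxes 0 Gy peaks, with the horizontal axis in kb. The regions of score 3100 and 1179.28 stand apart, whereas that of 1012.85 on chromosome 4 has other 5 Gy peaks less than 100 bp away on both sides.

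Of the 20 highest-scoring regions, 15 had a 0 Gy peak within 10 kb and 4 within 1 kb. Scores from rank 5 to rank 20 ran from 871.15, on chromosome 11 (88067219 to 88070390), down to 577.29, on chromosome 20 (1392838 to 1393398), next to a region of 674.76 (1393533 to 1395126). Among those with a close 0 Gy peak, the region on chromosome 11 lay 148 bp from a 0 Gy peak of 83.28, and that on chromosome 6 (129921518 to 129922037, score 641.27) lay 782 bp from one of 163.44. Among those without one, the region on chromosome 1 (172557879 to 172559122, score 597.40) had no peak of either list in its flanks and a 0 Gy peak of 1059.21 at 19.8 kb. The remaining ones, besides those on chromosomes 2 and 20 described further on, were on chromosome 9 (5784492 to 5787547, score 768.91), chromosome 15 (65868622 to 65870700, score 663.07, and 101445714 to 101446037, score 588.47), chromosome 4 (120192284 to 120193204, score 640.23), chromosome 1 (244582028 to 244582250, score 608.42) and chromosome 12 (67706358 to 67710135, score 579.19). The lengths of the 20 ran from 223 to 4126 bp, so a high score did not require a long region.

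Most of the 1168 regions had a 0 Gy peak in the neighbourhood. The median distance to the nearest one was 1535.5 bp (95% interval 1283 to 1775). In 79 cases (6.76%) it was under 100 bp, in 419 (35.9%) from 100 bp to under 1 kb, and in 422 (36.1%) from 1 to under 10 kb. It was from 10 to under 100 kb in 198 cases (17.0%) and 100 kb or more in 50 (4.28%). Closeness of this kind was also seen for the 3393 0 Gy peaks of at least 150 without a 5 Gy counterpart. Their nearest 5 Gy peak fell in the same distance classes in 5.63%, 29.4%, 42.3%, 18.6% and 4.07%, with a median of 2096 bp. A nearby peak of the other list was thus not particular to the regions. Within 10 kb, 512 regions had 0 Gy peaks on both sides, 408 on 1 side and 248 (21.2%) on no side. The share in reach of a 0 Gy peak was similar over the scores. The share with a 0 Gy peak within 10 kb was 77.6% (95% interval 74.2 to 80.6) for scores from 150 to under 200 and 81.7% (95% interval 74.2 to 87.4) from 300 to under 500, and these intervals overlap.

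**Figure D3:**
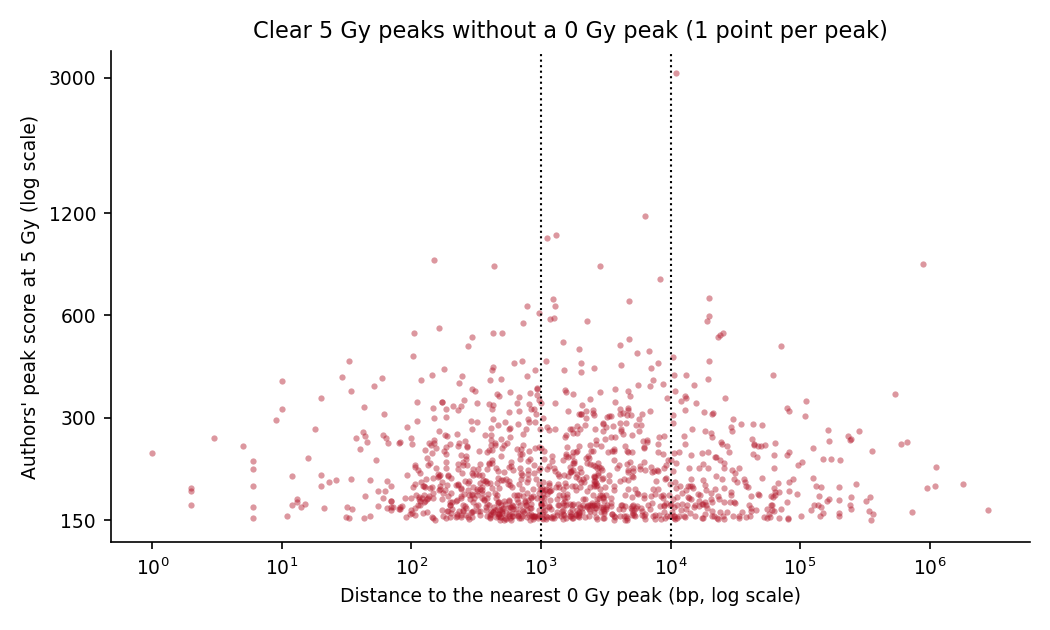
Authors' score (vertical axis, log scale) against the distance to the nearest 0 Gy peak in bp (horizontal axis, log scale) for the 1168 regions, 1 point each, with dotted lines at 1 and 10 kb. Of the points, 498 lie within 1 kb of a 0 Gy peak and 50 at 100 kb or more, and the 4 regions scoring at least 1000 lie between 1112 and 11036 bp from one.

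The nearest 0 Gy peak scored somewhat lower than 0 Gy peaks in general. Its median score was 120.6 (95% interval 114.8 to 126.0), against 136.6 over all 0 Gy peaks, and 456 of the 1168 (39.0%, 95% interval 36.3 to 41.9) scored at least 150, against 46.5% of all 0 Gy peaks. It overlapped another 5 Gy peak in 705 cases (60.4%, 95% interval 57.5 to 63.1), next to 58.1% of all 0 Gy peaks. In 59 cases (5.05%) it was itself a 0 Gy peak of at least 150 with no 5 Gy counterpart. A 0 Gy peak of that kind lay within 10 kb of 188 of the regions (16.1%, 95% interval 14.1 to 18.3) and of 3070 of the 16401 5 Gy peaks with a counterpart (18.7%, 95% interval 18.1 to 19.3, and 21.9% after weighting). The closest pairs of a region and a 0 Gy peak, a list taken after the values were seen, were 1 bp apart on chromosome 5 (133509594 to 133510468) and 2 bp apart on chromosome 10 (940561 to 941323), chromosome 1 (46148737 to 46149404) and chromosome 16 (66860298 to 66861149). Their scores were 236.86, 166.22, 182.39 and 186.90, and at such places the absence of overlap rests on where the edges of a peak were drawn.

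A small group lay far from any 0 Gy peak. The most distant were on chromosome 2 (677173 to 677690, score 160.39, and 1694987 to 1695609, score 190.99), with the nearest 0 Gy peak 2823 and 1805 kb away. Next came chromosome X (43037300 to 43038331, score 215.25, 1130 kb), chromosome 18 (50616783 to 50616981, score 189.46, 1092 kb) and chromosome 17 (52030238 to 52030539, score 186.90, 948.5 kb). On chromosome 2 (14774062 to 14777316), a region of 3255 bp and score 850.92 was the only one of the 10 most distant that was also among the 20 highest scores. Its only near companion was a 5 Gy peak of 132.22 at 1.07 kb. The remaining 4 of the 10 were on chromosome 12 (98115446 to 98115654, score 158.41), chromosome 9 (29824728 to 29826535, score 255.22), chromosome 8 (36953025 to 36953343, score 251.97) and chromosome 2 (222826392 to 222828520, score 353.49). In 28 regions (2.40%, 95% interval 1.66 to 3.44) no other peak of either list lay within 100 kb. Among 5 Gy peaks with a counterpart, 356 (2.17%, 95% interval 1.96 to 2.41) had no further peak of either list within that distance, or 1.55% after weighting, below the interval of the regions. No other 5 Gy peak lay within 100 kb of 4.02% of the regions (95% interval 3.04 to 5.31), against 2.597% after weighting, and the share was higher in the regions in 4 of 5 score classes.

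Compared with other 5 Gy peaks of like score, the 1168 regions had similar median lengths, more very short peaks and fewer long ones. Their median length was 687 bp (95% interval 652 to 714, quartiles 382.5 and 951.3 bp), against 956 bp for the 5 Gy peaks with a counterpart. Within score classes the medians came closer, with 629 bp (95% interval 602 to 664) against 674 bp (95% interval 660 to 691) from 150 to under 200, and 779 bp against 782 bp from 200 to under 300. Length is set by the same reads as the score, so these are descriptions. A short peak also has less room to meet a 0 Gy peak than a long one. Length is thus tied to the overlap rule too, which weighting by score does not remove. Regions shorter than 200 bp, a limit chosen after the lengths were seen, numbered 103 (8.82%, 95% interval 7.32 to 10.6). Among 5 Gy peaks with a counterpart, weighted to the same scores, they made up 2.84%, and the share was higher in regions without a counterpart in 5 of 5 score classes. Regions of 1500 bp or longer made up 8.56% (95% interval 7.09 to 10.3) against 11.4% after the same weighting, and the share was higher in 0 of 5 score classes. For 2000 bp or longer the values were 4.195% (95% interval 3.19 to 5.50) and 5.95%.

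**Figure D4:**
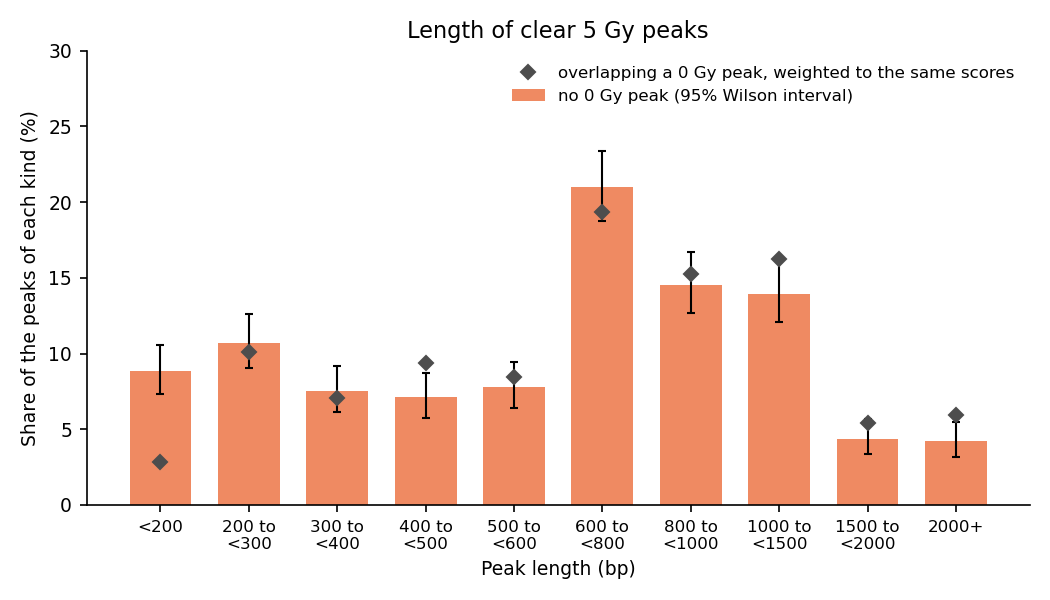
Share of the 1168 regions (bars, with Wilson 95% intervals) in classes of peak length in bp, and share of the 5 Gy peaks of at least 150 with a 0 Gy counterpart, weighted to the same score classes (diamonds). The bar under 200 bp reaches 8.82% against a diamond at 2.84%, whereas from 600 to under 800 bp the values are 21.0% and 19.3%.

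The short regions lay in other surroundings than those of middle length. Those under 200 bp had a median distance of 4039 bp (95% interval 2852 to 6251) to the nearest 0 Gy peak and 5531 bp to the nearest other 5 Gy peak. For the 415 regions from 600 to under 1000 bp the medians were 663 bp (95% interval 530 to 823) to a 0 Gy peak and 584 bp (95% interval 456 to 707) to another 5 Gy peak. For the 214 regions from 1000 to under 2000 bp they were 1184 bp (95% interval 774 to 1881) and 509 bp (95% interval 339 to 807). The 49 regions of 2000 bp or longer lay again farther off, at 4530 bp (95% interval 1708 to 7256) and 7011 bp. The shortest 3 covered 130 bp on chromosome 20 (10498461 to 10498590, score 238.63), 135 bp on chromosome 6 (34638122 to 34638256, score 165.95) and 138 bp on chromosome 11, the last being the region at the threshold named above.

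Many of the short regions carried scores that recur exactly in the list. A score held by at least 10 peaks of the 5 Gy list was found in 155 regions (13.3%, 95% interval 11.4 to 15.3), against 7.88% of the peaks with a counterpart after weighting, and it was higher in 3 of 5 score classes. Of the 103 regions under 200 bp, 70 (68.0%, 95% interval 58.4 to 76.2) had such a score. That share was not counted for peaks with a counterpart under 200 bp, so it is not shown to be particular to the regions. Peaks with a counterpart and a recurring score were short too. Their median length was 241 bp (95% interval 232 to 256), against 206 bp (95% interval 198 to 222) for the 155 regions. The most frequent recurring scores among the regions were 154.49, held by 26 regions out of 50 5 Gy peaks with that score, and 165.95, held by 17 out of 48. The regions with these 2 scores had median lengths of 190.5 and 184 bp. Read numbers per peak are not part of the lists, so how many reads such a region rests on was not tested.

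The longest regions were few and mostly of moderate score. The first was on chromosome 20 (3849998 to 3856114, 6117 bp), with a score of 289.69, no other 5 Gy peak in its flanks and 824 bp of 0 Gy peaks there. It was followed by chromosome 10 (88683332 to 88687730, 4399 bp, score 490.96) and chromosome 10 (103574060 to 103578222, 4163 bp, score 189.77). The latter began 1.15 kb from a 0 Gy peak of score 3100 that covered 5545 bp. Others of the 10 longest lay on chromosome 11 (122940587 to 122944500, 3914 bp, score 526.58), chromosome 2 (187541803 to 187545656, 3854 bp, score 343.81), chromosome X (74963174 to 74966765, 3592 bp, score 160.54), chromosome 1 (236711270 to 236714698, 3429 bp, score 216.18) and chromosome 14 (67799363 to 67802667, 3305 bp, score 152.29). Of the 10 longest, 2 were also among the 20 highest scores, on chromosomes 20 and 12.

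The 10 kb on each side of the regions held bound sequence at both doses in similar amounts. Leaving out the region itself, other 5 Gy peaks covered 2351 bp of these flanks on average and 0 Gy peaks 2122 bp, a ratio of 1.11. More flanking length at 5 Gy than at 0 Gy was found for 559 of the 1168 regions (47.9%, 95% interval 45.0 to 50.7), less for 445, and equal for 164, all of which had none at either dose. Around the 5 Gy peaks with a counterpart the averages were 2705 and 2935 bp, a ratio of 0.922, but there a matching 0 Gy peak can reach into the flank, which by construction cannot happen for the regions. With the matching 0 Gy peaks left out, a count added after the first values were seen, the 0 Gy average there was 2631 bp, the ratio was 1.03, and 44.2% had more at 5 Gy after weighting. Less at 5 Gy was found for 38.1% of the regions (95% interval 35.4 to 40.9), against 45.6% after the same weighting. That share was higher in the regions in 0 of 5 score classes. With the matching peak set aside the ratios, which were not weighted by score, were thus close, at 1.11 and 1.03. Fewer of the regions had less flanking length at 5 Gy. Ties enter that share, since the 164 regions with none at either dose count neither as more nor as less. The number of 0 Gy peaks in the flanks of the regions was higher than that of 5 Gy peaks, at 3.26 against 2.82.

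Weak 5 Gy peaks without a counterpart were more frequent near the regions. A 5 Gy peak that scored under 150 and overlapped no 0 Gy peak lay within 1 kb of 183 regions (15.7%, 95% interval 13.7 to 17.9), against 9.13% of the peaks with a counterpart after weighting. Within 10 kb the shares were 44.7% (95% interval 41.9 to 47.6) and 37.3%. The rule puts a 0 Gy peak on every comparison peak and on none of the regions. These shares are therefore not independent of the rule and are descriptions. Any other 5 Gy peak lay within 1 kb of 45.9% of the regions (95% interval 43.1 to 48.8), below the 54.2% of peaks with a counterpart after weighting. The regions thus had fewer close neighbours in their own list, while weak neighbours without a counterpart were more frequent. The nearest other 5 Gy peak overlapped a 0 Gy peak in 717 cases (61.4%), was another of the 1168 regions in 88 (7.53%) and was a weaker peak without a counterpart in 363 (31.1%). Over all 5 Gy peaks, 27.0% had no counterpart, but that share includes peaks of at least 150, so it is not a like value for the 31.1%. The kind of nearest neighbour was not counted for peaks with a counterpart.

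After neighbours closer than 10 kb, from either list, had been merged into loci, the 1168 regions fell into 1046 of the 15970 loci. Of these loci, 948 held 1 region, 77 held 2, 18 held 3 and 3 held 4. A 0 Gy peak belonged to the locus of 933 regions (79.9%), and 225 loci with 235 regions had none. In the 821 loci with both a region and a 0 Gy peak, 5 Gy peaks covered 1.10 times the 0 Gy length, and the 5 Gy length was the greater in 555 loci and the smaller in 266. Leaving out the length of the regions themselves the ratio was 0.950, and the 5 Gy length was the greater in 335 loci and the smaller in 486. The 7101 loci with a 5 Gy peak of at least 150 and a 0 Gy peak but no such region had a ratio of 0.943. Across whole loci, the excess at 5 Gy was therefore no larger than the length of the regions that the rule had selected.

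Chains of at least 3 regions within 10 kb of each other numbered 11 and held 36 regions, while 63 chains held 2 and 1006 regions stood alone. The chain with the highest score lay on chromosome 20 (1392304 to 1398211) and had 4 regions, of scores 158.56 to 674.76, covering 3092 bp, with no 0 Gy peak inside it or within 10 kb. The other chains of 4 were on chromosome 8 (49325711 to 49332563, scores 150.76 to 245.30, 2 0 Gy peaks inside) and chromosome 3 (44041863 to 44047779, scores 186.47 to 360.29, 1 0 Gy peak inside). On chromosome 3, 5578 of the 5917 bp of the chain were covered at 5 Gy and 862 bp at 0 Gy. On chromosome 12 (76655767 to 76657936) 3 regions of scores 263.58 to 341.79 covered 2114 of 2170 bp, with no 0 Gy peak inside and 1 within 10 kb. The chain on chromosome 10 (101760008 to 101769387) ran across 4 0 Gy peaks and had 8625 bp covered at 5 Gy and 3011 bp at 0 Gy. The others were on chromosome 12 (109110094 to 109124446 and 122507671 to 122512967), chromosome 6 (86336556 to 86347507), chromosome 9 (95043787 to 95049670), chromosome 3 (194167448 to 194174577) and chromosome 2 (102485911 to 102490746). Each chain is 1 neighbourhood in 1 library, so its members are not separate observations.

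The regions were spread over the chromosomes. Chromosome 1 had the most, with 101, followed by chromosome 12 with 91 and chromosome 5 with 78. As a share of the 5 Gy peaks of at least 150 on the chromosome, they ran from 4.05% on chromosome 22 (12 of 296) to 9.69% on chromosome 10 (75 of 774). The 95% interval included the genome-wide share in 20 of the 23 chromosomes described. It lay above that share on chromosome 10 (7.80 to 12.0) and below it on chromosome 1 (5.39%, 4.46 to 6.51) and chromosome 19 (4.22%, 2.99 to 5.92). With the lists exchanged, 15.04% of the 0 Gy peaks of at least 150 on chromosome 10 had no 5 Gy counterpart (95% interval 12.9 to 17.4), next to 15.2% over the genome. Neighbouring regions are counted singly here, which these intervals do not allow for, nor are they adjusted for the 23 chromosomes looked at.

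**Figure D5:**
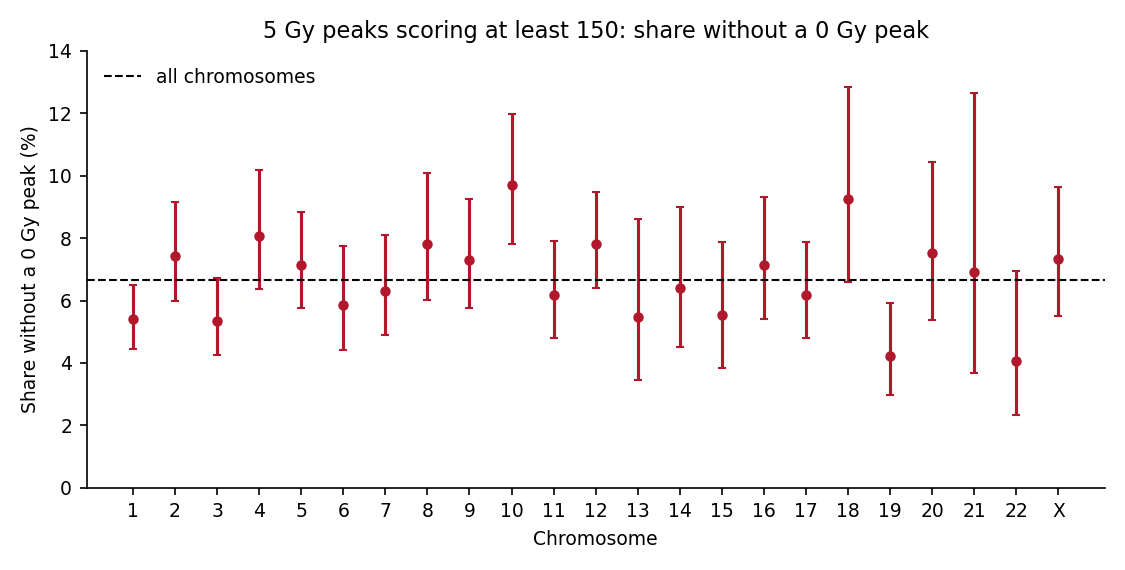
Share of the 5 Gy peaks scoring at least 150 that had no 0 Gy counterpart (vertical axis, %) on chromosomes 1 to 22 and X, with Wilson 95% intervals. The dashed line marks the share over all chromosomes, 6.65%, and chromosomes 1, 10 and 19 have intervals that do not include it.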

How the data were processed

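The data were 2 peak lists, each calling a HuR library over the IgG library of its dose, with 1 library per group. Cutadapt 1.9.1, Bowtie2 2.2.4 and the build hg19 are named for the reads, per the submitters' processing notes. Peak names begin with MACS, whose version the sources used here do not give. The names of the deposited lists carry values that may be its settings, but without a label. The score in the deposited lists is the authors' peak score. Scores above 3000 are largely tied at 3100, as is 1 of the regions.

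Overlap of at least 1 bp and distances were computed with pandas 2.3.3, numpy 2.4.6 and scipy 1.17.1 (Python 3.11.15) and checked on simulated lists, and bedtools 2.31.1 counted the same number of regions. Intervals are Wilson's (95%) for shares and from order statistics for medians. Weighted shares give each score class (from 150, 200, 250, 300 and 500) its share among the regions. Flanks were 10 kb on each side. Figures were drawn with matplotlib 3.10.9.

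Named regions are the 20 highest-scoring, the 10 farthest from a 0 Gy peak, the 10 longest, the nearest to the minimum score and chains of at least 3. The regions and these rules were chosen with earlier results of these data known. Chromosome Y enters totals only. The gene table at hand is on another build, so region classes, sequences and 14 prepared gene lists were not analysed here.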

Additional observations from a re-analysis of the deposited data

How the results depend on the processing

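The number of regions, their share, the median distance and the median length were recomputed. Of 26 such values, 5 stayed close to the reported one and 21 did not. Among those that stayed close was the median distance at minimum scores of 100 (1488 bp) and 250 (1760.5 bp). The others were the number, share and median length after 5 Gy peaks within 100 bp were joined. In the other settings the number of regions moved with the rule. The number was 3230 at a minimum score of 100, 278 at 250, 670 with no 0 Gy peak allowed within 1 kb, 2269 with all 5 Gy peaks counted that had less than 50% of their length covered at 0 Gy, 3170 where only 0 Gy peaks of at least 150 counted as a match and 4267 with the same number of highest-scoring peaks from each list. The last of these settings also took lower-scoring 0 Gy peaks away as possible matches. No share is given for it, so its count is not directly comparable with the others. In the order of the first 5 settings, the share of 5 Gy peaks was 13.5%, 2.28%, 3.81%, 12.9% and 18.0%, and with the lists exchanged 15.2%. The median distance was 5089 bp with no 0 Gy peak within 1 kb, which that setting forces upwards, 33 bp with the 50% setting and 4407 bp with matches of at least 150. The median length, 687 bp, was 559, 836, 577, 810 and 735 bp in the 5 settings. Joining 5 Gy peaks within 100 bp, an alternative chosen after seeing the data, gave 1053 regions, 6.38%, and a median distance of 1895 bp. Planned results on introns, genes and sequence needed an hg19 genome and were not run. No paired analysis was possible because there is 1 library a group. Depth is unknown, which limits every comparison of the lists.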
